A study of Homo sapiens with 20 samples.

Results

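The interferon regulatory factors (IRFs) are a family of DNA-binding transcription factors, and 8 of them were followed here through the response of U2OS cells to interferon gamma (IFNγ). The genes were IRF1, IRF2, IRF3, IRF4, IRF5, IRF7, IRF8 and IRF9, chosen by name as rows of a count table that held 43366 genes. Poly(A)-selected, stranded RNA-seq was made from U2OS, an established human osteosarcoma cell line, in clones that kept ZBTB48 (WT) or were knocked out for it (KO). ZBTB48 is a zinc finger protein that binds telomeric repeats and some gene promoters. Every clone was grown alone in medium or with 250 U/ml of IFNγ for 24 h, giving 4 groups of 5 libraries: WT untreated, WT with IFNγ, KO untreated and KO with IFNγ. Each replicate was a separate clone of one line, so the spread between replicates was a spread between clones, and none of the groups held other cell types or primary cells.

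IFNγ binds its receptor and signals through the kinases JAK1 and JAK2 to genes that carry GAS elements. IRF1 is a classical direct target of this pathway and in turn activates antigen presentation and antiviral genes, while IRF2 binds the same elements and is known mostly as a counterweight to IRF1. IRF9 is the DNA-binding part of the ISGF3 complex, which binds interferon-stimulated response elements. IRF3, IRF5 and IRF7 are held inactive in the cytoplasm until nucleic acid or Toll-like receptor signalling leads to their phosphorylation, and IRF4 and IRF8 are best known from lymphoid and myeloid cells, where they bind DNA with partners such as PU.1 and BATF.

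Promoter stretches of IRF1 and IRF9, and sites from windows of IRF8 and IRF5, are shown because the letters of GAS and IRF elements can be read in them. RefSeq promoter windows of 300 bases on GRCh38.p14 were found for 5 of the 8 genes (9 windows in all), and not for IRF2, IRF3 and IRF7. Both strands were searched for a GAS element (TTCNNNGAA), the core of an interferon-stimulated response element (GAAA, any 2 bases and GAAA again) and a shorter IRF element (AANNGAAA), which that core contains. Capitals mark the matches. The IRF1 stretch is chr5:132490774-132490923 on the minus strand and the IRF9 stretch chr14:24161115-24161264 on the plus strand. Both run over the 150 bases before the annotated start. The IRF8 sites are chr16:85902704-85902731 and chr16:85902799-85902826 on the plus strand, and the IRF5 site is chr7:128940627-128940654 on the plus strand.
IRF1 promoter: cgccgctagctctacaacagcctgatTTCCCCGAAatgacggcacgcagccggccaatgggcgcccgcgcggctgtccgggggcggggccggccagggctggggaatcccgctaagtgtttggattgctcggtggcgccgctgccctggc
IRF9 promoter: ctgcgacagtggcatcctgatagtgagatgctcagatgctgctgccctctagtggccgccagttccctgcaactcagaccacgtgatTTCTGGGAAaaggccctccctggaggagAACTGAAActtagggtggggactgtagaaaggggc
IRF8 upstream site: tatctgcctgAAAGGAAAgggcagatga
IRF8 site near the start: cccacggagcTTTCAGTTtgcactcagg
IRF5 site: gtctagccacTTTCGTTTcccctggggc

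A GAS element was present in the windows of IRF1, at -124 to -116 from the start, and IRF9, at -63 to -55. Of all 35116 promoter windows of this length, 7.66% held one. An IRF element was present in windows of IRF5, IRF8 and IRF9, and in 22.8% of all windows. The response element core was in no window of these genes and in 3.57% of all windows. The IRF4 window held none of the 3 patterns. The IRF5 and IRF8 windows began inside the longer gene models of the count table, which start at chr7:128937032 and chr16:85899162. The bases before those starts were not searched, so the lack of a GAS match for IRF5 and IRF8 holds for these windows only. Their sites lie within exons of the longer models, and a match describes letters, not a bound site.

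Each library held between 46652288 and 72952859 counted read pairs, so 3 counts, taken as the floor of detection, equalled 0.0404 to 0.0609 counts per 1000000 counted pairs (CPM). Several libraries went against their labels or stood apart. ZBTB48 itself was at 8.02 to 11.6 CPM in the WT libraries and at 1.29 to 5.27 CPM in the libraries of 4 clones labelled KO, but at 11.3 and 15.8 CPM in the untreated and treated libraries labelled KO replicate 3. An mRNA level need not follow the loss of a protein, so the group is called KO by its label. Treated and untreated libraries of a clone deviated together from their group means in all WT clones (r from 0.787 to 0.885 over 15115 genes) and in KO replicates 1 to 3 (0.688 to 0.84), but not in KO replicates 4 and 5 (0.0181 and 0.0917), where each untreated library was closest to the treated library of the other. KO results are therefore also given without these clones. Among markers fixed for the line, mostly COL1A1, SPARC and VIM, the summed level had a median of 8242 CPM (5091 to 10681) in WT untreated, 5399 (3849 to 7385) in WT treated, 4757 (3515 to 9260) in KO untreated and 3351 (2877 to 6760) in KO treated libraries, with ranges that overlapped, and its part in the results was not tested. The group means of COL1A1 were 3923, 2522, 1749 and 1051 CPM in that order, whereas COL1A2 was under 1 CPM in each group mean and TWIST1 was at or near 0.

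Before treatment, the family was led by IRF3 and IRF9, and after 24 h of IFNγ by IRF1. Between genes, levels were compared as CPM per kilobase of exon. In WT untreated libraries IRF3 stood at 18.2 ± 1.10 (SD, n = 5) CPM per kilobase, followed by IRF9 at 12.9 ± 2.10, IRF2 at 6.04 ± 0.542, IRF1 at 3.97 ± 0.347 and IRF8 at 2.04 ± 0.792. None of these neighbours overlapped over the 5 libraries. IRF7 (0.168 ± 0.0717) and IRF5 (0.160 ± 0.0611) could not be ordered, and IRF4 was lowest at 0.0198 ± 0.0229. In the KO untreated libraries the mean order was the same, but the ranges of IRF3 and IRF9, of IRF2 and IRF1, and of IRF1 and IRF8 overlapped.

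With IFNγ, IRF1 in WT libraries reached 122 ± 14.0 CPM per kilobase, ahead of IRF9 at 61.9 ± 11.9, IRF3 at 23.9 ± 2.12, IRF8 at 17.6 ± 4.85 and IRF2 at 8.73 ± 0.343. Only IRF3 with IRF8, and IRF5 with IRF7, overlapped among neighbours. The KO libraries had the same order, with IRF1 at 117 ± 37.3 and IRF9 at 54.3 ± 6.38 CPM per kilobase. The summed level of the 8 genes went from 43.5 ± 2.72 to 235 ± 11.9 CPM per kilobase in WT and from 41.2 ± 6.53 to 223 ± 46.9 in KO libraries.

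The makeup of that sum changed more than the rank of any one gene shows. IRF1 made up 9.12% ± 0.604 of it in WT untreated libraries and 52.1% ± 5.31 with IFNγ, and in KO libraries 10.5% ± 2.60 and 51.4% ± 6.61. IRF3 went the other way as a share, from 41.8% ± 1.02 to 10.2% ± 0.850 in WT, although its own level was not lower. The share of IRF9 was 29.6% ± 3.11 before and 26.4% ± 4.90 after. The ratio of IRF1 to IRF2 per kilobase was 0.657 ± 0.0345 in WT untreated libraries and 14.0 ± 1.83 with IFNγ, and in KO libraries 0.813 ± 0.264 and 15.8 ± 4.11. IRF1 lay below IRF2 before treatment in each WT clone and above it in every treated library. The order before treatment turned without scaling by length, with 15.4 to 19.3 CPM of IRF1 and 12.5 to 15.5 CPM of IRF2 in the WT untreated libraries.

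**Figure D1:**
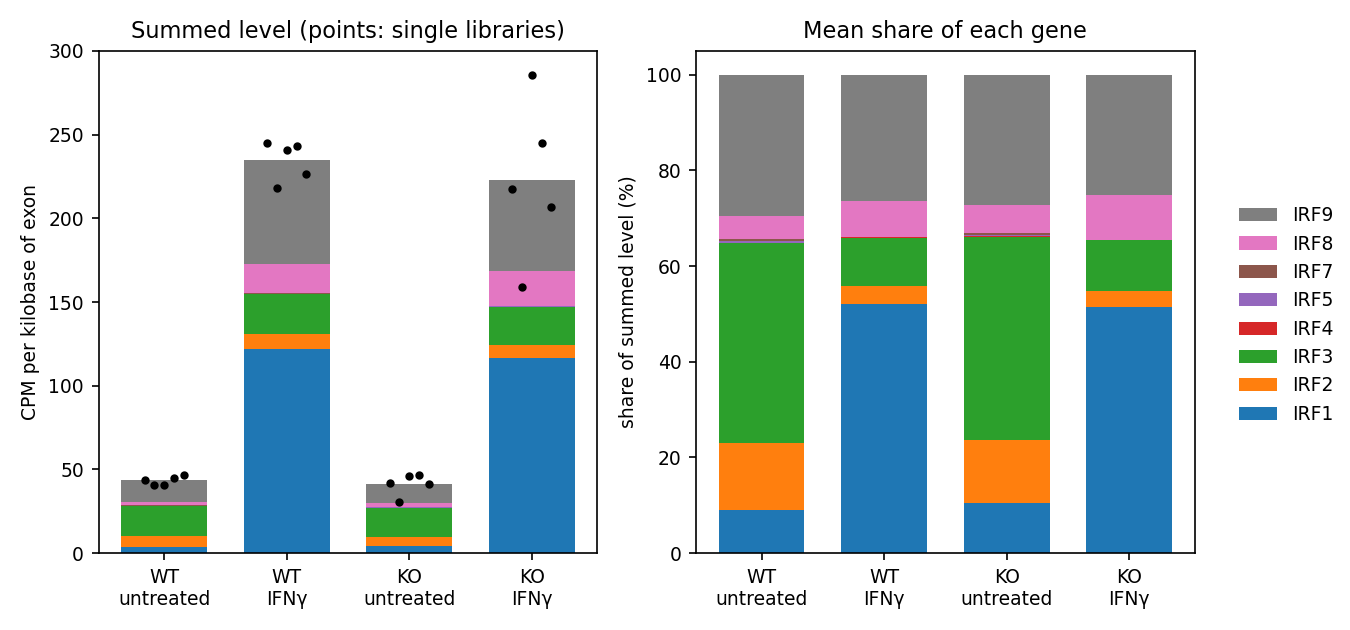
Summed level of the 8 IRF genes in CPM per kilobase of exon (left, stacked group means, points are single libraries) and the mean share of each gene in that sum (right, percent) in the 4 groups. IRF3 and IRF9 fill most of the untreated bars, and IRF1 fills 52.1% of the WT and 51.4% of the KO bar after IFNγ.

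IRF1, IRF8 and IRF9 rose with IFNγ in both genotypes, by 31.1-fold, 8.69-fold and 4.84-fold in WT clones and by 26.4-fold, 8.53-fold and 4.81-fold in KO clones. Of the 8 members, 7 passed the filter on low counts, and 3 passed the study's cut-offs (adjusted p under 0.01 and more than 2-fold) in WT clones, all higher. Over all 19522 genes tested there, 2.48% were called higher. The same 3 were called in KO clones, where 1.7% of 19385 genes were called higher. The median change over all genes tested was -0.03 on the log2 scale in each genotype. RNA was measured in bulk, so a change in RNA per cell and a change in the share of cells that express a gene cannot be told apart.

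IRF1 (chr5:132481609-132490773, minus strand, GRCh38) was at 16.3, 15.4, 16.5, 19.3 and 17.3 CPM in WT untreated replicates 1 to 5. With IFNγ the same clones stood at 494, 487, 628, 511 and 492 CPM. The treated libraries were far above the untreated ones and within a narrow band, apart from replicate 3. KO untreated libraries held 15.3, 9.74, 27.4, 20.4 and 21.5 CPM, and KO treated libraries 462, 294, 691, 624 and 424 CPM. KO clones were spread more widely, with replicate 2 lowest and replicate 3 highest in both conditions, and their values lay on both sides of the WT values. The log2 fold change was 4.96 (SE 0.13, edgeR quasi-likelihood adjusted p = 3.25e-09) in WT clones, the smallest p of all 19522 genes tested, and 4.72 (SE 0.33, edgeR adjusted p = 1.16e-05) in KO clones. By size of the rise IRF1 ranked 72 among the genes tested in WT clones, since many induced genes start near 0.

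IRF8 (chr16:85899162-85922609, plus strand) is better known from blood cells, but its mRNA was present in every library of this line. WT untreated libraries held 11.8, 14.8, 14.3, 9.79 and 4.27 CPM, and WT treated libraries 105, 84.1, 102, 124 and 55.4 CPM. WT replicate 5 was lowest before and after IFNγ, and the groups did not overlap. KO untreated libraries held 15.7, 5.83, 18.9, 13.7 and 12.1 CPM, and KO treated libraries 137, 73.6, 186, 89.4 and 80.1 CPM. KO replicate 2 was lowest and replicate 3 highest in both conditions. IRF8 had a log2 fold change of 3.12 (SE 0.33, edgeR adjusted p = 0.000140) in WT and 3.09 (SE 0.35, edgeR adjusted p = 0.000451) in KO clones.

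Markers of the cells in which IRF8 is usually studied ran from absent to a level near that of untreated IRF8. In group means PRDM1 was at 8.96 to 15.7 CPM, CD8A at 2.95 to 5.84 CPM and CD68 at 2.55 to 6.85 CPM. The other lymphoid and myeloid markers listed were at no more than 1.22 CPM. LYZ was under 0.1 CPM in each group mean, and SPI1, the gene of the IRF8 partner PU.1, was between 0.230 and 0.441 CPM in the group means. The 7 lymphoid markers summed to 11.2 to 18.3 CPM in WT untreated and 17.1 to 29.1 CPM in WT treated libraries, most of it PRDM1, which some other cells also express. In KO libraries these sums were 2.49 to 23.8 and 3.13 to 32.3 CPM. The 6 myeloid markers summed to 2.57 to 10.7 CPM before and 4.45 to 18.0 CPM after IFNγ in WT, and to 1.23 to 10.9 and 1.68 to 13.3 CPM in KO libraries, with CD68 the main part. The lymphoid marker CD3E was at or under the floor in 3 of the 4 groups.

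IRF9 (chr14:24161265-24166565, plus strand), the DNA-binding part of ISGF3, was at 23.6, 18.9, 20.8, 22.9 and 28.8 CPM in WT untreated libraries. WT treated libraries held 134, 103, 77.8, 118 and 118 CPM. KO untreated libraries held 18.1, 15.7, 23.7, 26.3 and 16.5 CPM, and KO treated libraries 88.2, 94.8, 111, 84.1 and 105 CPM. Treated and untreated libraries did not overlap in either genotype, and WT replicate 3, the highest for IRF1, was the lowest of the WT treated libraries for IRF9. On the log2 scale IRF9 rose by 2.28 (SE 0.17, edgeR adjusted p = 8.75e-06) in WT and 2.27 (SE 0.17, edgeR adjusted p = 1.81e-05) in KO clones.

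The 3 WT calls held in each fit that left out 1 library, and so did the 3 KO calls. Without KO replicates 4 and 5 the KO calls were lost, with adjusted p of 0.0223 for IRF1, 0.0861 for IRF8 and 0.0116 for IRF9 (edgeR), while their log2 fold changes were 4.78, 3.28 and 2.35. The number of genes called among all genes then fell from 379 to 22. Without both libraries of KO replicate 3 all 3 were called, at log2 fold changes of 4.76, 3.0 and 2.28.

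IRF2 and IRF3 were not called in either genotype, with differences under 2-fold. IRF2 (chr4:184387729-184474550, minus strand) went from 14.1, 12.7, 12.5, 15.5 and 13.3 CPM to 19.4, 20.4, 19.3, 20.7 and 18.8 CPM in WT clones, with no overlap. In KO clones it was at 13.9, 8.22, 11.8, 11.8 and 15.8 CPM before and 16.1, 10.3, 15.9, 24.0 and 18.2 CPM after, and the groups overlapped. The difference on the log2 scale was 0.55 (SE 0.11, edgeR adjusted p = 0.00710) in WT clones, past the p cut-off but not 2-fold, and 0.46 (SE 0.24, edgeR adjusted p = 0.271) in KO clones. The WT value did not keep its side of the p cut-off under every alternative. The edgeR adjusted p was 0.0764 with all 20 libraries in 1 fit, 0.0206 with library totals and 0.0253 without the filter, and with 1 library left out it was 0.00766 to 0.0239, under the cut-off only without WT untreated replicate 4. DESeq2 gave an adjusted p of 1.05e-06. A replicate block for the clone gave an edgeR adjusted p of 5.91e-05 in WT and 0.0701 in KO clones, where the block rests on the doubted pairing of KO replicates 4 and 5, and without those clones and the block the KO value was 0.710. Over all genes 3.6% passed that p cut-off and were higher in WT clones.

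IRF3 (chr19:49659572-49665857, minus strand), the factor that drives IFNB1 once phosphorylated, was at 58.6, 57.8, 54.5, 61.3 and 64.0 CPM in WT untreated and 83.1, 68.5, 73, 79.8 and 84.9 CPM in WT treated libraries. These groups did not overlap. In KO clones IRF3 was at 60.3, 46.2, 56.5, 62.2 and 57.7 CPM before and 87.5, 60.4, 62.5, 79.4 and 82.9 CPM after IFNγ. IRF3 had a log2 fold change of 0.41 (SE 0.10, edgeR adjusted p = 0.0201) in WT and 0.40 (SE 0.14, edgeR adjusted p = 0.103) in KO clones, under the cut-offs. With the replicate block the adjusted p was 5.43e-05 in WT and 0.0191 in KO clones, the KO value again with the doubted pairs, and without KO replicates 4 and 5 and the block it was 0.512. The exons of IRF3 share 374 bases with BCL2L12 on the opposite strand, whose means went from 56.4 to 68.0 CPM in WT and from 58.6 to 68.1 CPM in KO clones. The strand setting of the counting is not given in the sources used here, so the IRF3 difference is uncertain.

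IRF5 (chr7:128937032-128950038, plus strand), which acts downstream of Toll-like receptors, was expressed weakly. WT untreated libraries held 0.765, 1.48, 0.812, 0.57 and 1.2 CPM and WT treated libraries 1.78, 2.36, 1.74, 1.35 and 1.35 CPM. KO untreated libraries held 0.927, 0.405, 0.773, 0.658 and 0.910 CPM and KO treated libraries 1.69, 0.672, 2.48, 0.721 and 1.79 CPM. The groups overlapped in both genotypes. The log2 fold change was 0.84 (SE 0.30, edgeR adjusted p = 0.10) in WT and 1.00 (SE 0.41, edgeR adjusted p = 0.169) in KO clones. With the replicate block the WT adjusted p was 0.00512 and the KO one, with the doubted pairs, 0.0592, with neither difference past 2-fold. Without KO replicates 4 and 5 and the block the KO value was 0.450.

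IRF7, which many interferon-treated cells induce through ISGF3, was near the limit of detection here. In every library it had between 6 and 35 counts. WT untreated libraries held 0.582, 0.335, 0.264, 0.293 and 0.212 CPM and WT treated libraries 0.272, 0.101, 0.215, 0.152 and 0.582 CPM. The log2 fold change of IRF7 (chr11:612555-615950, minus strand) was -0.34 in WT clones (95% interval -1.43 to 0.75, edgeR adjusted p = 0.745) and 0.01 in KO clones (-1.02 to 1.04, edgeR adjusted p = 0.993). The upper bounds exclude a rise of the size measured for IRF8 or IRF9. IRF4 (chr6:391752-411443, plus strand) had 0 to 18 counts, did not pass the filter and was not tested across genes.

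Among the 6 members with a mean of at least 1 CPM, IRF1, IRF2, IRF3, IRF8 and IRF9 were higher without overlap in treated WT libraries. Of 15118 such genes, 7.73% were higher and 5.2% lower without overlap. In KO clones IRF1, IRF8 and IRF9 were higher without overlap, as were 7.19% of these genes, with 4.03% lower. A two-sided exact permutation test of log2(CPM + 0.5) gave p = 0.00794 for each member named without overlap. This p is the smallest that 5 against 5 libraries allow. A lack of overlap fixes it, so it adds no support. The test took treated and untreated libraries of a clone as independent, although those of WT clones deviated together. The exact permutation p was 0.0238 for IRF5 in WT clones and 0.0159 for IRF3 in KO clones, among 32 such tests.

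Within clones, IRF1, IRF2, IRF3, IRF5, IRF8 and IRF9 were higher with IFNγ in 5 of 5 WT and 5 of 5 KO clones. IRF7 was higher in 1 of 5 WT and 3 of 5 KO clones, and IRF4 in 1 of 5 of each. The KO counts of IRF5 and IRF7 rest on the doubted pairs of KO replicates 4 and 5. IRF5 was at 0.910 CPM in KO untreated replicate 5 and at 0.721 CPM in KO treated replicate 4. IRF7 was at 0.202 CPM in KO untreated replicate 4 and at 0.184 CPM in KO treated replicate 5. The share of all genes higher in every clone was not computed. The log2 response of IRF1 was 4.69 to 5.21 in WT and 4.27 to 4.91 in KO clones. That of IRF8 was 2.47 to 3.60 and 2.66 to 3.55, and that of IRF9 was 1.88 to 2.48 and 1.66 to 2.63. The ranges overlapped for all 8 genes. The WT minus KO difference in mean log2 response was 0.20 for IRF1 (exact permutation p = 0.238), 0.06 for IRF8 (exact permutation p = 0.817) and -0.04 for IRF9 (exact permutation p = 0.873), and that of IRF1 was the smallest of the 8 p-values. Without KO replicates 4 and 5, whose pairing is in doubt, the smallest exact permutation p was 0.0536, for IRF2.

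WT and KO clones were then compared at each condition. No IRF gene was called between WT and KO, either untreated (0.0154% of 19505 genes called) or with IFNγ (0.0155% of 19383 genes called), and all WT and KO ranges overlapped. Untreated, the WT minus KO log2 fold change was -0.16 for IRF1 (95% interval -0.67 to 0.34), -0.28 for IRF8 (-1.06 to 0.49) and 0.19 for IRF9 (-0.20 to 0.58). With IFNγ it was 0.06 for IRF1 (-0.39 to 0.51), -0.26 for IRF8 (-0.86 to 0.34) and 0.19 for IRF9 (-0.14 to 0.52). Each of these intervals with IFNγ lay within 2-fold in either direction. For IRF2 and IRF3 with IFNγ the values were 0.22 (-0.21 to 0.65) and 0.06 (-0.23 to 0.36), while for IRF5 and IRF7 the intervals reached past 2-fold.

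The difference between the WT and KO responses was 0.22 for IRF1 (95% interval -0.44 to 0.88), 0.01 for IRF8 (-0.98 to 1.00) and -0.01 for IRF9 (-0.49 to 0.47) on the log2 scale. No member was called, nor was any of the 21052 genes tested by edgeR (0%), or any gene by DESeq2. At an unadjusted p under 0.05 edgeR gave 86 genes (0.409%), fewer than chance alone gives at that cut-off. The fit took treated and untreated libraries of a clone as independent, although those of WT clones deviated together. Even the gene with the smallest p, CIITA (edgeR unadjusted p = 0.000197), was not called, so a lack of calls here carries little weight. With the clone block, doubted KO pairs included, the IRF1 difference was 0.20 (SE 0.14, against 0.32 without it), and no gene was called.

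CIITA, the master regulator of MHC class II genes and a known target of IRF1, gave a contrast. With IFNγ it stood at 107, 55.2, 38.1, 89.5 and 106 CPM in WT libraries. KO libraries held 3.05, 6.12, 11.1, 18.8 and 7.45 CPM, and the groups did not overlap. Of genes with a mean of at least 1 CPM, 0.556% were higher and 0.318% lower in WT without overlap. The log2 fold change of CIITA was 3.08 (SE 0.47), but its edgeR adjusted p was 0.0951. The exact permutation p of 0.00794 follows from the lack of overlap. The paper, which used DESeq2 with the same cut-offs, reports CIITA as significantly higher in treated WT than in treated KO clones. IRF1 in the same libraries overlapped, and the treated KO library with the most IRF1, replicate 3 with 691 CPM, had 11.1 CPM of CIITA. This was also the clone with ZBTB48 mRNA at the WT level.

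**Figure D2:**
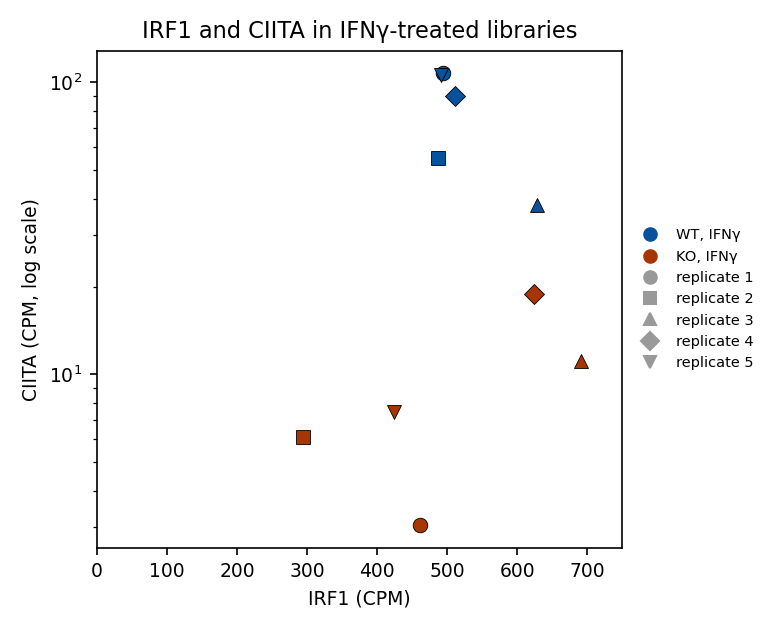
IRF1 (CPM, linear axis) against CIITA (CPM, log axis) in the 10 libraries treated with IFNγ, blue for WT and brown for KO, with a marker for each replicate. The WT libraries lie between 38.1 and 107 CPM of CIITA and the KO libraries between 3.05 and 18.8 CPM, over overlapping ranges of IRF1.

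KO replicate 2 was the lowest of the KO untreated libraries for 6 of the 7 tested members (IRF1, IRF2, IRF3, IRF5, IRF8 and IRF9) and the lowest of the KO treated ones for 5 (all of these but IRF9). Its summed IRF level was 30.4 CPM per kilobase untreated and 159 treated, the lowest in each group. Within the clone, folds of treated over untreated were taken after 0.5 was added to each CPM value. They were 28.8 for IRF1, 11.7 for IRF8, 5.87 for IRF9, 1.30 for IRF3 and for IRF5 and 1.24 for IRF2. The added 0.5 makes these folds smaller, above all for the weakly expressed IRF5, which went from 0.405 to 0.672 CPM. KO replicate 3 was highest for 4 of the 7 members after IFNγ. The shares of all genes lowest in KO replicate 2 or highest in KO replicate 3 were not computed. A trait of the IRFs therefore cannot be told from one of the whole library.

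Other genes of the pathway were read from lists chosen with earlier results of these data known, so their counts are a description only. Each list count below stands against 2.48% of all genes tested called higher in WT and 1.7% in KO clones. Of 14 receptors, kinases, STATs and inhibitors upstream of the IRFs, 4 rose in WT and 4 in KO clones and none was called lower, with a list median of 0.17 and 0.22 on the log2 scale. SOCS1, a feedback inhibitor of JAK kinases, rose by 2.20 and 2.10, and JAK2 by 1.89 and 1.71. STAT2, a part of ISGF3, rose by 1.79 and 1.96. SOCS3, another feedback inhibitor, named after its values were seen, had group means of 73.3 CPM before and 37.0 CPM after IFNγ in WT and of 73.4 and 32.3 CPM in KO clones. Its log2 fold changes of -0.97 in WT and -1.18 in KO clones missed the cut-off (edgeR adjusted p = 0.0744 and 0.0148).

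Among 13 genes that lead to activation of IRF3, IRF5 and IRF7, 3 rose in WT and 2 in KO clones (list medians 0.34 and 0.30). They were receptors of double-stranded RNA: TLR3 at a log2 fold change of 3.12 in WT and 3.24 in KO clones (edgeR adjusted p = 0.0159 in KO, not called), IFIH1 at 3.03 and 2.93, and DDX58 at 1.62 and 1.69. The other 10, with the kinases TBK1 and IKBKE among them, were not called. The 7 interferon ligand genes read here were all but silent, and other interferon genes were not read. IFNB1 had at most 2 counts in any library, and IFNE, the most abundant of the 7 ligand genes on the list, at most 21.

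Partners and co-regulators of IRFs were led by BATF2, a basic leucine zipper factor. Of 11 tested, 4 rose in WT clones (BATF2, BATF3, NLRC5 and CIITA) and 2 in KO clones (BATF2 and NLRC5), with list medians of 0.56 and 0.49. BATF2 went from a mean of 0.542 to 265 CPM in WT and from 0.660 to 216 CPM in KO libraries. NLRC5, a regulator of MHC class I genes, had a log2 fold change of 3.69 in WT and 3.77 in KO clones. CIITA had 4.66 in WT and 2.19 in KO clones, the KO value missing the cut-off at an edgeR adjusted p of 0.0116.

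Genes known to depend on IRF1 rose together. All 18 were called higher in WT clones and 14 of 17 tested in KO clones, with list medians of 4.66 and 3.72. Of the leading genes, IDO1, which degrades tryptophan, had a mean of 0.0384 CPM in WT untreated libraries and of 773 CPM with IFNγ, and in KO libraries it was at 0 before and at 695 CPM after. GBP5, a guanylate-binding protein of antimicrobial defence, went from 0.0667 to 805 CPM in WT and from 0.0232 to 818 CPM in KO libraries. GBP4, of the same family, went from 0.146 to 364 CPM and from 0.397 to 322 CPM.

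Genes known to be driven by ISGF3 were mixed. Of 21 tested, 15 rose in WT and 13 in KO clones and none was called lower, with list medians of 3.37 and 3.40. XAF1 went from 0.0174 to 34.1 CPM in WT and from 0.00658 to 51.0 CPM in KO libraries, OAS2 from 0.575 to 58.8 and from 0.263 to 57.2 CPM, and IFI27 from 0.55 to 43.8 and from 0.479 to 45.4 CPM. MX1, named after its values were seen, was at 1.2 and 1.18 CPM in WT group means and had log2 fold changes of -0.01 in WT and 0.50 in KO clones (edgeR adjusted p = 0.991 and 0.348). In the same group means IRF9 was at 23.0 and 110 CPM. No gene of any of these lists was called by edgeR between WT and KO libraries at either condition. That holds for CIITA too, which the paper's DESeq2 test calls with IFNγ.

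The KO counts of these lists were lower with fewer clones, except that of the partners without KO replicate 3. Without KO replicates 4 and 5, 2 of the 14 upstream genes were called higher, 0 of the 13 activating genes, 0 of the 11 partners, 5 of the 17 genes that depend on IRF1 and 3 of the 21 ISGF3 genes. Their medians were 0.24, 0.36, 0.38, 4.49 and 3.29. Without KO replicate 3 the counts were 3, 1, 2, 12 and 7, with medians of 0.17, 0.31, 0.49, 3.78 and 3.55. No gene of these lists was called lower in either fit.

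The genes whose pattern was most like each member over the 20 libraries were found by Pearson's r of log2(CPM + 0.5) among 15118 genes, as a description in which treatment sets most of the likeness. For IRF1 these were PSMB10 (r = 0.995), an immunoproteasome subunit, GBP4 (0.994) and BATF2 (0.992). For IRF8 they were PLSCR1 (0.992), the peptide transporter gene TAP2 (0.974) and PSMB8 (0.972), and for IRF9 BATF2 (0.980) and NMI (0.979) were among them. For IRF2 they were EREG (0.949), C3 (0.937) and C1R (0.896), for IRF3 CENPU (0.90), RBM17 (0.899) and ERRFI1 (0.880), and for IRF5 KIF9 (0.912), PPM1M (0.904) and LINC00941 (0.868). After group means were subtracted, PLSCR1 was again first for IRF8 (r = 0.933), while none of the closest 3 of IRF1, IRF3 or IRF9 remained among the closest 3.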

How the data were processed

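The data were 20 poly(A)-selected mRNA libraries of U2OS clones, in 4 groups of 5. The authors aligned reads with STAR 2.7.9a to GRCh38 and counted unique pairs per RefSeq gene with featureCounts 2.4.0, and the deposited values are raw counts per gene with the exon length of each gene. Per the labels, processing also used DESeq2 1.40.1 and deepTools 3.5.1. The members and gene lists were chosen with earlier results of these data known. Counts were tested with edgeR 4.0.16 (R 4.3.3, TMM factors, filterByExpr, robust quasi-likelihood F test), separately for each pair of groups and over all 20 libraries for the difference between responses, with Benjamini-Hochberg adjustment over all genes tested. A call needed an adjusted p under 0.01 and more than 2-fold, the cut-offs of the study, which used DESeq2. DESeq2 1.42.0 was an alternative. The code was tested on simulated data. Single genes were compared by exact permutation of log2(CPM + 0.5), two-sided, over all splits of the values into the groups compared. For correlations of untreated with treated levels, scipy 1.17.1 gave the ranks and the adjustment of p. CPM used TMM-scaled library totals. Levels per kilobase used the deposited exon length. The floor was 3 counts, and floors cover counting error only. Named genes were the 8 members, ZBTB48, CIITA, the 3 tested genes of each list with the largest WT change, and the 3 genes most like each member with a mean of at least 1 CPM. Further names in counts of 5 or fewer, the uncalled genes, markers and BCL2L12 were added after their values were seen. A few genes of these lists are not reported here by name, but count among the members of their lists.

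The labels name the clone of each library, so the treated and untreated libraries of a replicate number share a clone. Their deviations from group means correlated at 0.787 to 0.885 in WT and 0.688 to 0.84 in KO replicates 1 to 3, and at 0.0181 and 0.0917 in KO replicates 4 and 5. WT and KO replicate numbers do not pair (r from -0.248 to 0.27). Alternatives were other scaling, no filter, DESeq2, all libraries in 1 fit, a replicate block, other call rules and libraries left out. A fit without KO replicate 3 was added after the data were seen. Promoter sequences came from RefSeq (GRCh38.p14).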

Additional observations from a re-analysis of the deposited data

Results flagged for a closer look

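IRF1 in the WT library of replicate 3 treated with IFNγ, at 628 CPM, stood apart from the other 4 clones of its group, the nearest of which was at 511 CPM. Its gap to that clone was 0.832 of the whole range of the group. Of 32 groups of 5 values examined (8 genes in 4 groups), this was the only one set apart, where chance gives 1.6. The same library was the deepest, with 72952859 counts, and the lowest of its group for IRF9 (77.8 CPM), and the part of depth in this was not tested.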

How the results depend on the processing

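IRF1, IRF8 and IRF9 were called higher in WT and in KO clones under every alternative run except the fit without KO replicates 4 and 5, in which 0 members were called in KO clones. At an adjusted p under 0.05 with no fold cut-off 5 members were called in WT clones, IRF2 and IRF3 besides. Of all 19522 genes tested there, 2202 were called under that rule. No member was called between WT and KO, nor for the difference between responses, under any alternative. With the replicate block no other call of a member changed. DESeq2's normal shrinkage was not run for the difference between responses.

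Counts over all genes moved more. For the KO response (379 genes called by edgeR) they were 823 with DESeq2, 613 with shrunken fold changes, 642 with all 20 libraries in 1 fit, 721 with the replicate block, 1528 at an adjusted p under 0.05 with no fold cut-off, 22 without KO replicates 4 and 5, and 160 without both libraries of KO replicate 3. Leaving out 1 library gave 203 to 464, with 241, 224, 203 and 229 without KO untreated replicates 1, 3, 4 and 5. For the WT response (585) they were 976 with DESeq2, 1414 with the replicate block, and 2202 and 943 with no fold cut-off at 0.05 and 0.01. For WT against KO (3 genes at each condition) they were 5 with IFNγ and 5 untreated without the filter, 16 and 12 with DESeq2, 6 and 5 with shrinkage, 6 and 5 with all libraries, and, untreated, 1 with the replicate block and 6 at 0.05 with no fold cut-off. Leaving out 1 library gave 3 to 5 with IFNγ, the 5 without KO replicate 1.

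Differences near 0 changed sign, none of them called, and the cause was not tested. On the log2 scale the difference between responses of IRF3 became 0.012 with DESeq2 size factors and with DESeq2, 0.026 without the filter, 0.0028 with the replicate block and 0.040 without KO replicates 4 and 5. That of IRF9 became 0.0069 with DESeq2 size factors, 0.0070 with DESeq2 and 0.023 without the filter, and that of IRF8 became -0.18 without KO replicates 4 and 5. The KO response of IRF7 became -0.038 with library totals, -0.070 without KO replicates 4 and 5 and -0.22 without KO replicate 3. Without KO replicates 4 and 5 the untreated WT minus KO value of IRF7 was -0.077, and the WT minus KO clone response was -0.13 for IRF5 and -0.19 for IRF8. With 1 library left out, WT minus KO with IFNγ ran from -0.076 to 0.21 for IRF1, from -0.0042 to 0.12 for IRF3 and from -0.61 to 0.15 for IRF7. Untreated it ran from -0.33 to 0.0064 for IRF1, from -0.012 to 0.097 for IRF3 and from -0.040 to 0.56 for IRF7, and the KO response of IRF7 from -0.25 to 0.32. With 1 clone left out, the difference between responses ran from -0.060 to 0.056 for IRF3, from -0.31 to 0.080 for IRF5, from -0.14 to 0.20 for IRF8 and from -0.17 to 0.096 for IRF9.

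Not scaled by length, IRF1 came before IRF2 in untreated libraries and IRF8 before IRF3 in treated ones, in KO untreated libraries IRF8 also before IRF2, in KO treated ones IRF8 also before IRF9, and in both untreated groups IRF5 before IRF7. IRF7 (6 to 35 counts per library) and IRF5 (20 to 140) had wide intervals, and IRF4 was not tested. The spread of IRF5 between clones, as SD over mean, was 24.2% to 52.3%, and the part of depth in it was not tested.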

Other observations

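Across the 10 clones, untreated and treated levels of a member were set side by side after the values were seen, for the 6 members with a mean of at least 1 CPM. For IRF1 Pearson's r was 0.78 (permutation p = 0.0134, adjusted over 6 relations 0.0269) and Spearman's rho 0.56 (permutation p = 0.0953, adjusted 0.143), but r was 0.02 without the 2 clones farthest from the median, so the relation rests on them. For IRF3 r was 0.76 (permutation p = 0.00529, adjusted 0.0269), rho 0.68 (permutation p = 0.0353, adjusted 0.129) and r without the 2 farthest clones 0.55. For IRF8 r was 0.76 (permutation p = 0.010, adjusted 0.0269), rho 0.66 (permutation p = 0.0431, adjusted 0.129) and r without the 2 farthest clones 0.46. For IRF2 r was 0.68 (permutation p = 0.0665, adjusted 0.0798), rho 0.20 (permutation p = 0.584, adjusted 0.584) and r without the 2 farthest clones -0.046. For IRF5 r was 0.64 (permutation p = 0.0435, adjusted 0.0653), rho 0.56 (permutation p = 0.0956, adjusted 0.143) and r without the 2 farthest clones 0.23. For IRF9 r was 0.31 (permutation p = 0.380, adjusted 0.380), rho 0.31 (permutation p = 0.390, adjusted 0.468) and r without the 2 farthest clones 0.36. No rank correlation passed the adjustment. KO replicates 4 and 5, whose treated and untreated libraries may not be of the same clone, are among the 10. Without them r was 0.90 for IRF1, 0.89 for IRF2, 0.79 for IRF3, 0.65 for IRF5, 0.83 for IRF8 and 0.61 for IRF9 (8 clones). Those 8 still hold KO replicate 2, the lowest untreated clone for IRF1 (9.74 CPM) and IRF2 (8.22 CPM), and no p was computed for them.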
